A study of Mus musculus with 6 samples.

Results

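The genes described here are *Hprt* and 9 other enzymes of purine salvage and synthesis, read across primary endothelial cell cultures from *Nhe6*-knockout and wildtype mice. They were taken by gene symbol, and all 10 were found among the 24421 genes of the deposited count table. *Hprt* was chosen because its reads were nearly absent in the knockout cultures, so its difference between the genotypes is described without a test, and the other 9 were chosen by function. The cultures were started from stria vascularis with spiral ligament at postnatal days 10 to 12, each from at least 6 pooled mice. They were purified by fluorescence-activated sorting. RNA was sequenced from 3 untreated *Nhe6*-knockout and 3 untreated wildtype cultures. The knockout mice carried a targeted disruption of *Nhe6*, on a strain whose name is of the B6.129P2 form. They had been backcrossed for more than 10 generations. The labels give the background of both groups as C57BL/6N and the methods give it as C57BL/6J.

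Purine nucleotides are made in 2 ways. In salvage, hypoxanthine phosphoribosyltransferase (*Hprt*) joins free hypoxanthine or guanine to phosphoribosyl pyrophosphate (PRPP) and yields IMP or GMP, and adenine phosphoribosyltransferase (*Aprt*) does the same for adenine. In de novo synthesis, the enzymes encoded by *Ppat*, *Gart*, *Pfas*, *Paics*, *Adsl* and *Atic* build IMP on PRPP, and the IMP dehydrogenases *Impdh1* and *Impdh2* turn IMP towards guanine nucleotides. *Hprt* lies on the X chromosome, is expressed in most cell types, and is a common reference gene in quantitative PCR. Cells without it survive 6-thioguanine and die in HAT medium, a pair of traits long used for selection in cell culture.

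The genotypes were compared by the log2 fold change (log2FC, always knockout relative to wildtype), given with its standard error (SE). Adjusted p come from the quasi-likelihood test of edgeR, corrected over all 13479 genes that passed a filter on low counts, by the method of Benjamini and Hochberg, and a gene was called where its adjusted p was under 0.05. Means are given ± SD over the 3 cultures of a genotype (n = 3).

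The libraries held 25587097 to 29126232 reads on genes, and all 10 purine enzymes were among the genes tested. On the first principal component, wildtype replicate 2 was at 106 and the remaining libraries were at -28.5 to -6.52, so results that rest on it are also given without it. *Nhe6*-knockout replicates 1 and 2 were closer to each other (chi-square per degree of freedom 4.91 over genes) than any other pair of the same genotype (90.1 to 398), although they differed by more than sampling noise. Among 12 listed endothelial markers, 7 were tested, 3 with a log2FC above 0 and 4 with one below 0. *Cdh5*, which encodes VE-cadherin, was the gene called, with 189 to 250 reads in the knockout and 2566 to 5039 in the wildtype libraries (adjusted p = 0.0133 from edgeR). Its adjusted p was up to 0.181 under the alternatives, and the call held in 8 of 14. Among other settings, the call was lost without any 1 of the knockout cultures, without wildtype replicate 3, and with knockout replicates 1 and 2 summed. *Flt1*, a VEGF receptor, had 399 to 604 against 941 to 3077 reads without passing the threshold (adjusted p = 0.242). The means of *Eng*, *Emcn* and *Tek* were higher in the knockout, but the groups overlapped for each. Without wildtype replicate 2 the log2FC of *Eng* fell from 0.76 to 0.33 and that of *Emcn* from 0.68 to 0.11. That of *Tek* rose from 0.67 to 1.68, and *Tek* passed only there (adjusted p = 0.0342). *Esam* (log2FC -3.54) and *Kdr* (-0.42) had lower knockout means, also with overlap. Without wildtype replicate 2 the log2FC of *Esam* was -1.21 and that of *Kdr* was above 0. Of the defining markers, *Cldn5* had 0 reads in all 6 libraries and *Pecam1* had at most 8, whereas *Emcn* had 397 in wildtype replicate 2 and 10458 to 18730 in the others. The 5 listed endothelial markers under the filter, which also include *Tie1*, *Vwf* and *Erg*, had at most 25 reads in any library. Endothelial is the name that the study gives to the cultures. The 6 listed fibroblast markers summed to between 165634 and 269920 normalized counts in every culture.

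The RefSeq promoters are shown for *Hprt*, *Aprt*, *Ppat* and *Paics*, of which the last 3 were not called. *Hprt* and *Aprt* are the salvage enzymes, and *Ppat* and *Paics* are neighbouring de novo genes that are read from opposite strands. The 250 bases before each annotated start are given 5′ to 3′ on the strand of the gene, in build GRCm38.p6. Capitals mark the GC box GGGCGG and the E-box CACGTG on either strand.

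Hprt (chrX:52987828-52988077, plus strand): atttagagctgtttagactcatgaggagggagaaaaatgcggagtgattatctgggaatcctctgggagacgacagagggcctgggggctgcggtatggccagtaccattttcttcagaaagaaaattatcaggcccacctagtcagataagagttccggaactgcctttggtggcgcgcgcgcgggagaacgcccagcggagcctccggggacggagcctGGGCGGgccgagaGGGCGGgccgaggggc

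Aprt (chr8:122576908-122577157, minus strand): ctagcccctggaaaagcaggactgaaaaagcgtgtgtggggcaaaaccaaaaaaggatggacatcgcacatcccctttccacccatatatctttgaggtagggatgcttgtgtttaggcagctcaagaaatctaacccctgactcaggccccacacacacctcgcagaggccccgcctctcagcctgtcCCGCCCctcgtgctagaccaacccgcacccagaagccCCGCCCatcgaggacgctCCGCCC

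Ppat (chr5:76951579-76951828, minus strand): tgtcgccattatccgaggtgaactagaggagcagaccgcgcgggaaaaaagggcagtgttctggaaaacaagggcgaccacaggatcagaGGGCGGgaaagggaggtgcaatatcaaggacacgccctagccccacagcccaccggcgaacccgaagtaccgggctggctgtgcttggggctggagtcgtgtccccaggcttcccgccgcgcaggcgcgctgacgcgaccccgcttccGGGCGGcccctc

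Paics (chr5:76951052-76951301, plus strand): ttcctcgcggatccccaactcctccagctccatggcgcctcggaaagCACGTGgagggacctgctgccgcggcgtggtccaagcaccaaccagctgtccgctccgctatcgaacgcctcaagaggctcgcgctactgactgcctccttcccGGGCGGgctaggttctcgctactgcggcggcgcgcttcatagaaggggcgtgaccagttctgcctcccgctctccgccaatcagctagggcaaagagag

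A promoter was matched for 9 of the 10 genes, with 10 windows in all because *Impdh1* had an upstream and a downstream start. Each of the 10 windows held at least 1 GC box, against 32.7% of all 32851 promoter windows of this length. An E-box was found in 3 windows (*Paics*, *Atic* and *Impdh2*), against 6.02% of all windows, and TATAAA in 0, against 12.4%. These counts describe the letters of the reference sequence. The annotated starts of *Paics* and *Ppat* lay such that the genes overlapped head to head by 277 bases, and their 250-base windows shared 0 bases. The *Hprt* window was 59.6% G and C and held 2 GC boxes, both close to the start.

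*Hprt* had 12, 19 and 15 reads in *Nhe6*-knockout replicates 1 to 3, against 1875, 2892 and 2179 reads in wildtype replicates 1 to 3. No knockout culture came near the wildtype range, and the 3 knockout cultures were alike. For the lowest count, 12 reads, the exact Poisson 95% interval was 6.20 to 21.0, and for the highest knockout count, 19 reads, it was 11.4 to 29.7, which covers counting error only. Scaled to a common library size, *Hprt* reached 14.9 ± 2.52 normalized counts in the knockout cultures, against 2382 ± 577 in the wildtype cultures. The knockout mean was 0.624% of the wildtype mean, a 160.3-fold difference, and the log2FC was -7.31 (SE 0.28). In wildtype cells *Hprt* was above 79.1% of all genes tested by mean normalized count, and in knockout cells it was above 3.27% of them. It had the lowest log2FC of the 13479 genes.

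With each culture left out in turn and under the other alternatives of normalization, filter and test, the log2FC stayed between -7.47 and -7.12. The upper end was the value without wildtype replicate 2, the wildtype culture with the most *Hprt* reads.

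**Figure D1:**
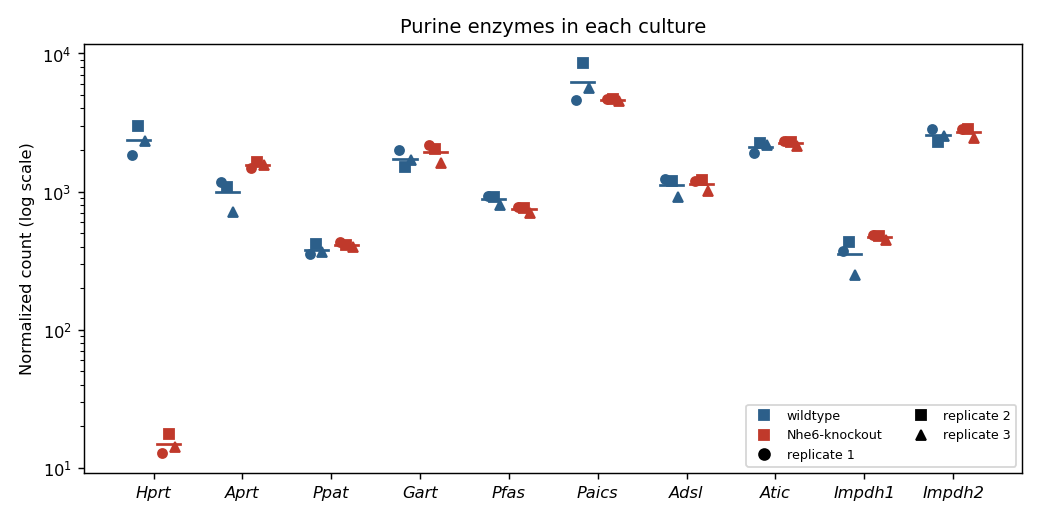
Normalized count on a log axis for the 10 purine enzymes, with 1 point per culture (circle, square and triangle for replicates 1, 2 and 3; blue wildtype, red *Nhe6*-knockout) and a bar at each group mean. *Hprt* is the only one of the 10 genes whose knockout points, with a mean of 14.9, lie far from its wildtype points, with a mean of 2382.

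In GRCm38, *Hprt* occupies chrX:52988137-53021659 on the plus strand. DNA that the knockout mice carry together with the disrupted allele cannot be told apart from the loss of *Nhe6* in these cultures. The groups also differed at both genes listed for known differences between C57BL/6 substrains. *Nnt*, a mitochondrial transhydrogenase, had 1297 ± 85.9 normalized counts in the knockout and 3960 ± 495 in the wildtype cultures, and *Wdfy1* had 564 ± 24.6 against 2528 ± 200.2. Both were called lower by edgeR (adjusted p = 0.0226 and 0.00614). The genes were listed with earlier results of these data known, and the paper names *Wdfy1* among its prominent differences. Their calls are therefore given as a description. Both calls were lost without any 1 of the knockout cultures and with knockout replicates 1 and 2 summed. That of *Nnt* was also lost without wildtype replicate 1 or 3. The adjusted p of *Nnt* and *Wdfy1* was up to 0.370 and 0.173 under the alternatives. Their part in the *Hprt* level was not tested.

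The nearest tested genes on each side of *Hprt* were read in both genotypes. On the upstream side, *Phf6*, which encodes a chromatin-associated protein, had 1409 ± 85.5 normalized counts in *Nhe6*-knockout and 1103 ± 191 in wildtype cells, a log2FC of 0.35 (SE 0.15, adjusted p = 0.443 from edgeR). *Ccdc160*, next to it, had a log2FC of 0.17 (SE 0.67). On the downstream side, the non-coding transcript *C430049B03Rik* had a log2FC of -0.23 (SE 0.69), and *Fam122b* one of 0.48 (SE 0.21). None of these 4 passed the threshold. The groups did not overlap for *Phf6* and *Fam122b*, each with the knockout higher, as for 10.3% of all genes, and they overlapped for *Ccdc160* and *C430049B03Rik*.

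Because *Hprt* is X-linked, sex-linked transcripts were read in the same libraries. *Ddx3y*, a Y-linked RNA helicase, was read in all 6 libraries, with 264 reads in wildtype replicate 2 and 1022 to 2216 in the others. *Xist*, the RNA that coats the inactive X, had 38294, 43436 and 48264 reads in the knockout cultures and 17487, 33558 and 33929 in the wildtype cultures, a log2FC of 0.53 (adjusted p = 0.573 from edgeR). The *Xist* levels of the groups did not overlap, and their part in the *Hprt* level was not tested.

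Among all genes tested, the profiles over the 6 libraries most like that of *Hprt* were sought by the root mean square distance between log2 CPM centred on each gene's mean. Because *Hprt* was chosen for its near-absent knockout reads, this search favours genes that are much lower in the knockout. The nearest 3 were *Mybpc1* (distance 1.22), *Trhr* (1.47) and *Cdh5* (1.53). *Mybpc1* had 0 to 3 reads in the knockout libraries and 46 to 147 in the wildtype libraries, and *Trhr* had 2 reads in each knockout library and 42 to 385 in the wildtype libraries. For these genes at or under 3 reads the distance depends on the added count of 2.

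Reference genes give another reading of *Hprt*. Of 13 genes commonly used to normalize quantitative PCR, 0 were called by edgeR and 0 by DESeq2, against 0.0668% and 4.08% of all genes. An unadjusted p under 0.05 was found for 2 (*Ywhaz* and *Pgk1*), against 11.8% of all genes. The groups did not overlap for 4, against 19.9% of all genes. Of these, *Gusb*, *Ywhaz* and *Sdha* had the knockout lower and *Pgk1* had it higher. The log2FCs of the 13 genes lay between -0.54 and 0.28, with a median of -0.03. *Gapdh*, a glycolytic enzyme, was the endogenous reference for quantitative PCR in the study. It had 7764, 8680 and 5937 reads in the knockout and 8440, 5488 and 4757 in the wildtype libraries. The log2FC of *Gapdh* was 0.21 (SE 0.24, adjusted p = 0.802 from edgeR).

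*Aprt*, the other salvage phosphoribosyltransferase, had the largest log2FC of the remaining 9 genes. It lies at chr8:122574635-122576909 on the minus strand of GRCm38. The knockout cultures held 1489, 1638 and 1551 normalized counts and the wildtype cultures 1178, 1080 and 718. Every knockout culture lay above every wildtype culture, and the wildtype cultures spread more widely. The means were 1559 ± 74.5 and 992 ± 243, a log2FC of 0.65 (SE 0.20, 95% interval 0.17 to 1.13, unadjusted p = 0.0156 and adjusted p = 0.277 from edgeR), which did not pass the threshold. The adjusted p lay between 0.136 and 0.812 under the alternatives. In the knockout libraries there were between 0.855 and 1.08 reads of *Hprt* per 100 reads of *Aprt*, and in the wildtype libraries there were 156 to 325.

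Of the 6 enzymes of de novo synthesis, 0 were called, and for 4 of them the log2FC was above 0. *Ppat*, the amidophosphoribosyltransferase of the committed step, had 431, 411 and 396 normalized counts in the knockout and 351, 420 and 363 in the wildtype cultures, which overlap. *Gart*, which carries several early steps on 1 protein, had 2177, 2030 and 1601 against 1986, 1500 and 1700. The log2FCs of *Ppat* and *Gart* were 0.13 (95% interval -0.24 to 0.49) and 0.16 (-0.24 to 0.57). *Adsl*, adenylosuccinate lyase, which also serves the branch to AMP, had 1139 ± 113 normalized counts in knockout and 1116 ± 181 in wildtype cells. The log2FC was 0.03 (95% interval -0.37 to 0.43), and its sign was below 0 in 4 of 14 alternatives, among them the fit without wildtype replicate 3. *Atic*, which carries the last steps to IMP, had 2254 ± 102 against 2108 ± 191, a log2FC of 0.10 (95% interval -0.18 to 0.38). None of these 4 intervals reached a log2FC of 1 in either direction.

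*Pfas* and *Paics* were the de novo enzymes with a log2FC below 0. *Pfas*, the formylglycinamidine ribonucleotide synthase, had 773, 757 and 699 normalized counts in the knockout and 934, 915 and 799 in the wildtype cultures, so that the groups did not overlap. Its log2FC was -0.25 (SE 0.13, 95% interval -0.56 to 0.06, adjusted p = 0.508 from edgeR). *Paics*, a bifunctional carboxylase and ligase, had 4659, 4646 and 4545 in the knockout and 4615, 8462 and 5613 in the wildtype cultures. Wildtype replicate 2 set its wildtype mean, and the log2FC was -0.43 with all cultures (95% interval -0.99 to 0.13, adjusted p = 0.531) and -0.15 without that culture. For its neighbour *Ppat*, wildtype replicate 2 was also the highest wildtype culture, but by less, with 351, 420 and 363 normalized counts in wildtype replicates 1 to 3. The reads of *Paics* per read of *Ppat* were 13.2, 20.2 and 15.5 in wildtype replicates 1 to 3 and 10.8 to 11.5 in the knockout libraries.

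Summed over the 6 de novo enzymes, the cultures held 11101 ± 629 normalized counts in *Nhe6*-knockout and 12443 ± 2019 in wildtype cells. Without *Paics* the sums were 6484 ± 566 and 6213 ± 238. Each of these differences of means lay within the larger of the SDs.

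The IMP dehydrogenases commit IMP to guanine nucleotides. *Impdh2*, the more abundant form in these cells, had 2838, 2832 and 2453 normalized counts in the knockout and 2850, 2285 and 2533 in the wildtype cultures, a log2FC of 0.08 (95% interval -0.23 to 0.40). *Impdh1* had 483, 474 and 444 in the knockout and 371, 435 and 250 in the wildtype cultures. The *Impdh1* groups did not overlap, by a margin of 444 against 435, and its log2FC was 0.41 (SE 0.23, 95% interval -0.14 to 0.96, adjusted p = 0.553 from edgeR). There were 5.53 to 5.98 reads of *Impdh2* per read of *Impdh1* in the knockout libraries and 5.25 to 10.1 in the wildtype libraries. *Impdh1* and *Impdh2* are close in sequence, and the table keeps reads placed at more than 1 site on a separate line, outside the counts of genes.

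Of the 9 enzymes other than *Hprt*, 0 were called by edgeR, against 0.0668% of all genes tested, and 0 were called in any of 14 alternatives. The share of all genes called was 4.08% with DESeq2, 0.0742% with limma-voom, 0.0148% with a replicate block and 0.00731% with knockout replicates 1 and 2 summed. It was 0.0668% with DESeq2 size factors, 0.0964% with upper-quartile normalization, 0.118% without a filter and 0.169% with at least 10 counts in every library. Leaving out a knockout culture gave 0.00729%, 0.00733% and 0% for replicates 1 to 3, and leaving out a wildtype culture gave 0.0293%, 2.88% and 0.0146%. An unadjusted p under 0.05 was found for 1 of them, *Aprt*, against 11.8% of all genes. The groups did not overlap for 3 of the 9 (*Aprt* and *Impdh1* with the knockout higher, *Pfas* with it lower), which is 33.3%, against 19.9% of all genes tested (10.3% with the knockout higher and 9.57% with it lower). The log2FC was above 0 for 7 of the 9, against 48.1% of all genes. Their median log2FC was 0.10, against -0.02 over all genes. For 8 of the 9 the 95% interval lay within a log2 change of 1 in both directions, and *Aprt*, with an upper bound of 1.13, was the exception.

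**Figure D2:**
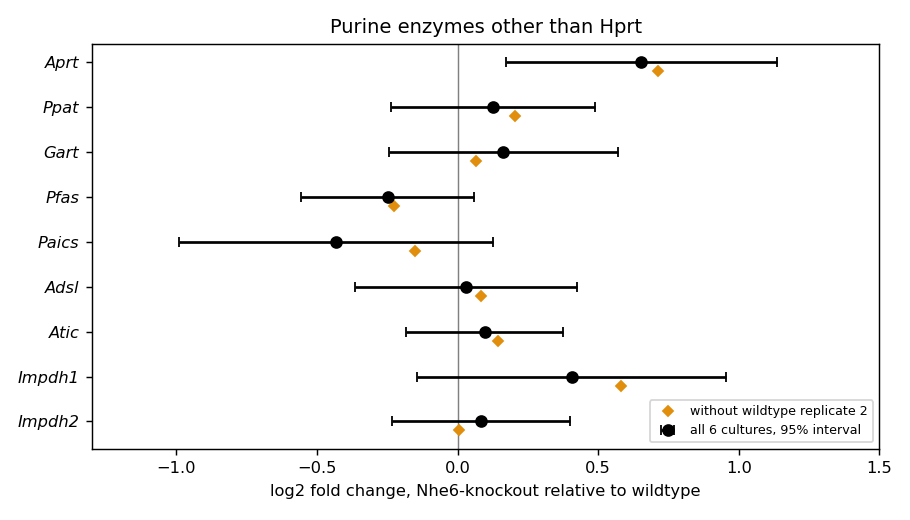
Log2 fold change (log2FC) (knockout relative to wildtype) of the 9 purine enzymes other than *Hprt*, with 95% intervals from edgeR's fit (black) and the value without wildtype replicate 2 (orange). The values lie between -0.43 (*Paics*) and 0.65 (*Aprt*), and the value of *Paics* moves to -0.15 without that culture.

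The spread between cultures was larger in wildtype than in knockout cells for 8 of these 9 genes, and *Gart* was the exception. The share of all genes with this order was not counted. The listed reference genes also spread more in wildtype cells, except *Actb*, *Ywhaz* and *Pgk1*, so the order is not particular to these enzymes. Over the 9 enzymes the coefficient of variation had a median of 14.1% in wildtype and 4.78% in knockout cultures. The largest was that of *Paics* in wildtype cells (32.0%), and the smallest was that of *Paics* in knockout cells (1.36%). The closeness of knockout replicates 1 and 2 bears on the knockout values.

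Levels were also compared between the genes, as normalized counts per kb of annotated exon. In wildtype cells *Hprt* ranked 2 of 10 with 1848 ± 448, behind *Paics* with 1985 ± 636 and ahead of *Impdh2* with 831 ± 92.2 and *Aprt* with 614 ± 150.1. The levels of *Paics* and *Hprt* differed by less than their spread. In knockout cells *Hprt* ranked last with 11.5 ± 1.96 per kb, below *Ppat* and *Pfas* with 93.3 ± 4.03 and 93.7 ± 4.88, and the order of the leading genes was *Paics*, *Aprt* and *Impdh2*. *Aprt* and *Impdh2* there, at 966 ± 46.2 and 880 ± 71.7 per kb, lay close together. *Ppat* and *Pfas* differed by less than their spread.

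The wider pathway was read from 6 lists of other genes, 87 symbols in all, of which 76 genes were tested. Of the 76, edgeR called 0, and 14 had an unadjusted p under 0.05 (18.4%, against 11.8% of all genes). The groups did not overlap for 17 of them (22.4%, against 19.9%), and the median log2FC was 0.11. DESeq2 called 6 of them (7.89%, against 4.08% of all genes with an adjusted p), which were *Nt5c3*, *Nt5c2*, *Slc29a1*, *Slc43a3*, *Tk1* and *Dctd*. Without wildtype replicate 2, edgeR's test called 4 (5.26%, against 2.88% of all genes), which were *Slc43a3*, *Ggh*, *Shmt1* and *Tk1*.

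PRPP, the substrate shared by salvage and de novo synthesis, is made by the *Prps* enzymes. Of 5 genes of PRPP supply tested, 0 were called by edgeR or DESeq2 and 0 had an unadjusted p under 0.05, and the median log2FC was -0.08. *Prps2* had 1207, 1174 and 1531 normalized counts in the knockout and 1068, 4877 and 1514 in the wildtype cultures, so that its log2FC of -0.93 (SE 0.56, adjusted p = 0.582) rested on wildtype replicate 2. *Prpsap2*, a subunit that associates with the synthases, had a log2FC of -0.31 (SE 0.16). *Prps1l3*, a gene close in sequence to *Prps1*, had one of 0.18 (SE 0.14).

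In the branches from IMP to AMP and GMP, with the kinases and deaminases that follow, 13 genes were tested and 0 were called by edgeR or DESeq2 and 0 had an unadjusted p under 0.05. The median log2FC was 0.10, and the lowest value was -0.41 (*Guk1*, guanylate kinase, SE 0.29, adjusted p = 0.656). Without wildtype replicate 2 the log2FC of *Guk1* was -0.06. *Ampd2*, an AMP deaminase that returns AMP to IMP, had a log2FC of 0.21 (SE 0.15, adjusted p = 0.655).

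Of 17 tested genes of nucleoside salvage and breakdown, 0 were called by edgeR. An unadjusted p under 0.05 was found for 2, against 11.8% of all genes. Both encode cytosolic nucleotidases, and the other nucleotidases tested had an unadjusted p above 0.05. *Nt5c2*, which acts on IMP and GMP, had 1623, 1599 and 1560 normalized counts in the knockout and 2487, 2008 and 2196 in the wildtype cultures, without overlap. The log2FC was -0.48 (SE 0.12, adjusted p = 0.182 from edgeR and 0.0474 from DESeq2). *Nt5c3*, which prefers pyrimidine nucleotides, had 464 ± 12.7 normalized counts in the knockout and 663 ± 16.9 in the wildtype cultures, a log2FC of -0.51 (SE 0.12, adjusted p = 0.173 from edgeR and 0.0151 from DESeq2). *Dck*, deoxycytidine kinase, had a log2FC of 0.58 (SE 0.25, adjusted p = 0.443).

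Nucleosides and nucleobases enter cells through carriers of the *Slc28*, *Slc29* and *Slc43* families. Of 8 listed carriers 5 were tested, 0 were called by edgeR, and 3 had an unadjusted p under 0.05, each with the knockout cultures above the wildtype cultures. Over all genes, 11.8% had an unadjusted p under 0.05 and 10.3% had the knockout cultures above the wildtype cultures without overlap. *Slc43a3*, a carrier of purine nucleobases such as those used by *Hprt* and *Aprt*, had 2159, 2029 and 1522 normalized counts in the knockout and 679, 220 and 795 in the wildtype cultures. Its log2FC was 1.75 (SE 0.46, adjusted p = 0.213), and the adjusted p was 0.0325 without wildtype replicate 2, the lowest of the 6 cultures, and 0.00625 with DESeq2. *Slc29a1*, the equilibrative nucleoside transporter ENT1, had 6214, 6564 and 4547 in the knockout and 3150, 2466 and 3366 in the wildtype cultures. The log2FC was 0.95 (SE 0.20, adjusted p = 0.124 from edgeR, 0.0822 without wildtype replicate 2 and 0.00312 from DESeq2). *Slc29a4* was near the limit of detection, with 20.6 ± 7.24 normalized counts against 6.90 ± 3.40.

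Folate-bound one-carbon units feed the steps of *Gart* and *Atic*. Of 17 tested genes of one-carbon supply, 0 were called by edgeR and 0 by DESeq2. An unadjusted p under 0.05 was found for 2, against 11.8% of all genes, and the median log2FC was 0.25. *Ggh*, which removes the glutamate tail of folates, had 1531, 1472 and 1485 normalized counts in the knockout and 2241, 1839 and 2380 in the wildtype cultures, a log2FC of -0.53 (SE 0.13, adjusted p = 0.185 and 0.0415 without wildtype replicate 2). *Shmt1*, the cytosolic serine hydroxymethyltransferase, had 135, 118 and 80.4 against 30.3, 65.0 and 26.7, a log2FC of 1.45 (SE 0.45, adjusted p = 0.282 and 0.0484 without wildtype replicate 2). *Slc19a1*, the reduced folate carrier, had a log2FC of 0.35 (SE 0.18, adjusted p = 0.510).

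Pyrimidine synthesis and salvage stand beside the purine route. Of 19 genes tested, 0 were called by edgeR and 7 had an unadjusted p under 0.05, against 11.8% of all genes. The groups did not overlap for 8, of which 4 had the knockout higher and 4 had it lower, against 19.9% of all genes in either direction. *Tk1*, the thymidine kinase of dividing cells, had 213, 196 and 74.8 normalized counts in the knockout and 8.80, 34.0 and 4.28 in the wildtype cultures. Its log2FC was 3.35 (SE 0.83, adjusted p = 0.187), and the adjusted p was 0.0346 without wildtype replicate 2 and 7.22e-04 with DESeq2. *Dctd*, deoxycytidylate deaminase, had a log2FC of 1.36 (SE 0.41, adjusted p = 0.276, and 0.0499 with DESeq2). *Ctps2*, a CTP synthase, had one of -0.48 (SE 0.15, adjusted p = 0.280).

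**Figure D3:**
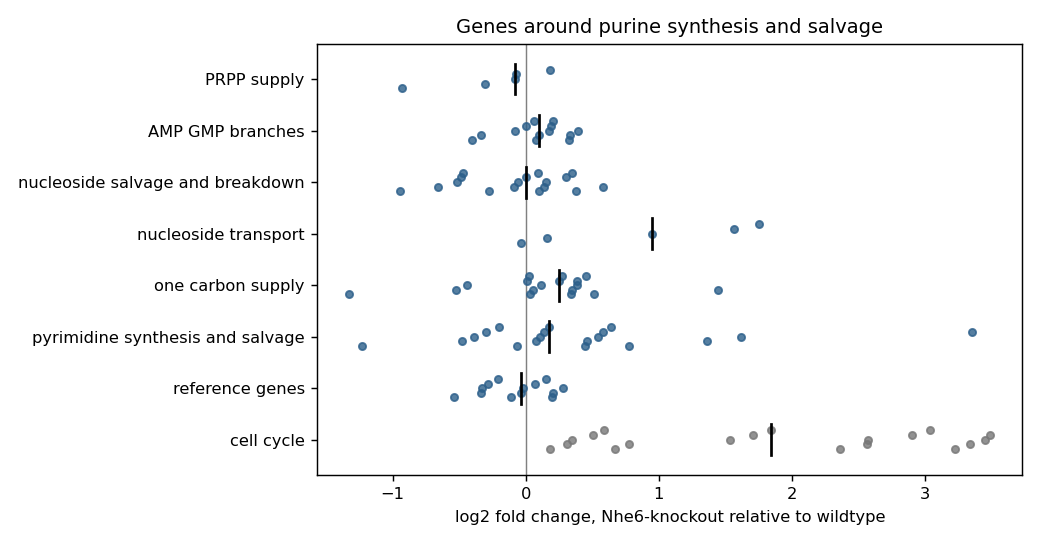
Log2 fold change (log2FC) (knockout relative to wildtype) of each tested gene in the 6 pathway lists and in the reference and cell cycle lists, with 1 point per gene and a black line at each list's median. The medians of PRPP supply (-0.08), the AMP and GMP branches (0.10) and the reference genes (-0.03) lie near 0, and that of the cell cycle list (grey) lies at 1.84.

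Dividing cells draw on purine and pyrimidine supply, so cell cycle genes were read beside the enzymes. Of 19 listed cell cycle genes, all 19 had a log2FC above 0, against 48.1% of all genes, with a median of 1.84. By edgeR 0 were called and 15 had an unadjusted p under 0.05, against 11.8% of all genes. DESeq2 called 13, against 4.08% of all genes, and edgeR called 10 without wildtype replicate 2, against 2.88%. Their summed normalized count was 14195 to 22021 in the knockout and 7466 to 9766 in the wildtype cultures. *Top2a*, a topoisomerase of dividing cells, had 3098, 3613 and 1902 reads in the knockout and 332, 341 and 147 in the wildtype libraries. Their part in the levels of the purine enzymes was not tested. Summed markers of the other cell types overlapped between the genotypes, with 15867 to 24522 normalized counts in knockout against 10979 to 22408 in wildtype for the endothelial list, 208776 to 233351 against 165634 to 269920 for the fibroblast list, and 19719 to 20499 against 15440 to 28498 for the mural list. Few abundant genes carry each sum, and single markers differed. Besides *Cdh5*, called lower in the knockout, *Dcn*, a fibroblast proteoglycan, had 4237 ± 526 normalized counts in the knockout and 2115 ± 349 in the wildtype cultures (adjusted p = 0.0952 from edgeR and 1.43e-04 from DESeq2), and DESeq2 also called *Flt1* lower (adjusted p = 0.0103). Of 6 mural markers, 3 did not overlap, each with the knockout higher, against 10.3% of all genes, and 0 were called by edgeR or DESeq2 (0 with an unadjusted p under 0.05). The log2FC was below 0 for 2 of the 6 mural markers, down to -3.14, and for 1 of the 6 fibroblast markers, at -3.35, with overlap for each. The part of these markers in the levels of the purine enzymes was not tested. In bulk RNA, fewer cells of a type and less RNA per cell cannot be told apart. Macrophage, melanocyte and epithelial markers summed to at most 1088 in any culture and overlapped too.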

How the data were processed

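RNA of 6 primary endothelial cell cultures from stria vascularis with spiral ligament (3 *Nhe6*-knockout, 3 wildtype) was measured. Per the labels, the authors made TruSeq stranded libraries with poly(A) enrichment and sequenced them with 75 cycles. The deposited file holds raw counts of reads per gene symbol, placed on mm10. The submitters' processing notes name STAR 2.7.7a, HTSeq 0.13.5 and DESeq2 1.26.0, and the annotation release and the strand setting are not given in the sources used here. The last 5 lines, which name no gene (22.2% of reads), were left out.

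Genes were filtered with filterByExpr (minimum count 10), scaled by TMM (factors 0.976 to 1.03) and tested for a genotype effect by quasi-likelihood F tests (edgeR 4.0.16, R 4.3.3) in 1 fit of all 6 libraries. The threshold was an adjusted p of 0.05. A standard error is the log2 fold change divided by the square root of F, and a normalized count is scaled to the mean library of 27548686 reads. Positions and exon lengths came from GENCODE M21, promoters from RefSeq. The text names all 10 purine enzymes, the nearest genes of *Hprt*, the 3 smallest p of each pathway list, any gene called, and reference and marker genes. Some of the genes this rule selects are not reported here. The members and lists were chosen with earlier results of these data known. Alternatives were DESeq2 size factors, upper-quartile normalization, other filters, DESeq2 1.42.0, limma-voom (limma 3.58.1), a replicate block, each culture left out, and, after seeing the data, knockout replicates 1 and 2 summed. The fits were tested on simulated data.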

Additional observations from a re-analysis of the deposited data

How the results depend on the processing

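Of 126 refits of the 9 enzymes other than *Hprt*, 122 kept the direction and the side of the threshold, and 0 gave an adjusted p under 0.05. The log2 fold change of *Adsl* was below 0 in the other 4, at -0.11 without wildtype replicate 3, -0.0127 without *Nhe6*-knockout replicate 1, -0.0154 without replicate 2 and -0.0129 with those 2 summed. The cause was not tested. The log2 fold change of *Hprt* moved by less than the spread between cultures in all 14 alternatives.

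The number of genes called over the whole table, 9, was less steady. It was 21 with no filter beyond 1 count, 21 with at least 10 counts in every library, 596 with the Wald test of DESeq2 and 1 with knockout replicates 1 and 2 summed. It ranged from 0 (without knockout replicate 3) to 395 (without wildtype replicate 2) when 1 culture was left out. The cause was not tested. With a replicate block it was 2. The labels give replicate numbers and no pairing of the cultures. Deviations from the group means correlated at 0.21, -0.19 and 0.11 for numbers 1 to 3, and not every culture correlated best with its own number. With 3 cultures per genotype, these values cannot decide whether the numbers pair the cultures. The block changed no call among the purine enzymes. No alternative moved the median log2 fold change of all genes by more than 0.0349. Genes with few reads, such as *Slc29a4* and *Hprt* in knockout cells, are limited by depth.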
